A study of Mus musculus with 18 samples.

Results

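Neutrophil granule genes were followed in single cells of mouse hearts, with the question of how their transcripts were spread over hearts that had received a short hairpin RNA against Jun (shJun), over hearts with a non-targeting hairpin (shNT), and over hearts without virus at 4 postnatal ages. The set was a fixed list of 9 genes, Mpo, Elane, Camp, Ltf, Ngp, Lcn2, Chil3, S100a8 and S100a9, out of 35808 genes with a column in the deposited matrices. The set was chosen by name, with the UMI levels of these knockdown cells in shJun beside shNT already known, so every value of shJun beside shNT is a description and carries no test. Over all wells of each animal the name given to the set held only in part: Camp and Ltf were higher in both shJun animals than in both shNT animals, S100a9 was lower in both, and the summed genes were not higher. Without the richest well of each animal, Ltf and S100a9 no longer kept this order.

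Neutrophils are short-lived white cells made in bone marrow, and they carry their antimicrobial proteins in granules that are filled in order as the cell matures. Mpo (myeloperoxidase) and Elane (neutrophil elastase) belong to the primary granules and are transcribed in early progenitors. Camp (the cathelicidin peptide), Ltf (lactoferrin), Ngp (neutrophilic granule protein) and Lcn2 (lipocalin 2, which binds bacterial siderophores) are products of secondary granules, transcribed later, together with Chil3, a chitinase-like protein that macrophages also make. S100a8 and S100a9 are calcium-binding proteins that form the cytosolic heterodimer calprotectin, and their transcripts stay abundant in mature neutrophils of blood.

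All cells came from hearts of the strain Myh6/Esr1-Tomato. The Myh6 promoter of this transgene is active in cardiomyocytes, and per the study's methods tamoxifen, which switches on the red reporter there, was given through the mother in the first days after birth. Hearts without virus came from 2 animals 4 days old (P4), 2 animals 7 days old (P7), 2 animals 14 days old (P14) and 5 animals 28 days old (P28), and they are called wild type as in the labels. Knockdown hearts, 2 per hairpin, were of the same strain, had received lentivirus into the left ventricle at postnatal day 1 and were collected at P28. Which wells held an infected cell was not analysed here. One of the 5 P28 animals (P28_3) stands for 2 chips whose well tables name neither an animal nor a fraction, so it may hold more than 1 mouse. Cells were dispensed into nanowell chips, and transcripts were tallied by unique molecular identifier (UMI), 1 for each captured molecule. Where the well tables give it, wells belong to a cardiomyocyte fraction (CM) or a non-cardiomyocyte fraction (NCM), which were separated by centrifugation. The 18 chips held 23475 wells with a cell and between 5568076 and 79284379 UMIs each, and the 6 knockdown chips were the deepest, with 51707122 UMIs or more. Each knockdown chip carried 1 shJun and 1 shNT animal, chips 1, 2 and 5 the first pair and chips 3, 4 and 6 the second, so both hairpins can be read within a chip. Chip barcodes come from 1 common set, and 96.8% of the 5051 barcodes in use appeared on more than 1 chip. Levels are given in CPM, the UMIs of a gene scaled to a total of 1000000 UMIs over the animal's wells (or the wells named), with mitochondrial genes and spike-ins left out of the total. In sums over all wells, fewer cells of a type and less RNA per cell cannot be told apart. Over all wells the targeted gene Jun gave 66.1 and 90.8 CPM with shJun and 66.9 and 88.2 CPM with shNT. In the CM fraction it was at 30.5 and 32.8 in shJun against 51.5 and 61.1 in shNT, and in the NCM fraction at 134 and 228 against 96.7 and 140, so the targeted gene was lower in shJun in the CM fraction and not in the NCM fraction.

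Camp, Ngp and Ltf lie on 1 stretch of chromosome 9 that spans 1195 kb (GRCm38, the build also called mm10): Camp at chr9:109847379-109849617 on the minus strand, Ngp at chr9:110419747-110423012 and Ltf at chr9:111019271-111042767 on the plus strand. S100a8 (chr3:90668978-90670035, plus strand) and S100a9 (chr3:90692632-90695721, minus strand) are neighbours on chromosome 3, where Chil3 (chr3:106147554-106167564, minus strand) also lies. Lcn2 is at chr2:32384633-32388252 on the minus strand, Mpo at chr11:87793581-87804413 and Elane at chr10:79886247-79888215, both on the plus strand. All are protein-coding genes. The promoter windows of the 3 chromosome 9 genes are shown because Jun is a subunit of the AP-1 factor and because these genes were counted in the same wells below. Each window runs from 250 bases before the RefSeq start site to 50 after it (RefSeq, GRCm38.p6, read along the gene's strand), at chr9:109849407-109849706 for Camp, chr9:110419558-110419857 for Ngp and chr9:111019042-111019341 for Ltf. Capitals mark TTGCNNAA, a core of C/EBP sites, on either strand, and Camp has none.
Camp: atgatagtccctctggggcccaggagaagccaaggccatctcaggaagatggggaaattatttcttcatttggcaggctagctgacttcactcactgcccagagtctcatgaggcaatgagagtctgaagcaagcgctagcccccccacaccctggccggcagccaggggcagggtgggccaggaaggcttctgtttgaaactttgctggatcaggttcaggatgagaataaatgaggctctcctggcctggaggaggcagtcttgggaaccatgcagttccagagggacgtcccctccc
Ngp: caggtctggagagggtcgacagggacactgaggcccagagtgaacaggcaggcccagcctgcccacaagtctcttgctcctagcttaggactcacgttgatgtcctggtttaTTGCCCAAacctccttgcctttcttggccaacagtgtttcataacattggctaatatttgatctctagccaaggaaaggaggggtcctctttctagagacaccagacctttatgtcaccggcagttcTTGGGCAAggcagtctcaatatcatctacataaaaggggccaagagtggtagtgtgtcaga
Ltf: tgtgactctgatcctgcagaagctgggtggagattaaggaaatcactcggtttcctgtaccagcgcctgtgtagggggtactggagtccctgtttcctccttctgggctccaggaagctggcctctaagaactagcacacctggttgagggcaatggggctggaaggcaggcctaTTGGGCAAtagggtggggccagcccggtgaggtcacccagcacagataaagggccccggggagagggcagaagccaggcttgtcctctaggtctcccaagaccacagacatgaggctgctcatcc
The AP-1 letters TGANTCA, which read the same way on both strands, were found in 0 of the 9 windows and in 7.81% of all 32851 promoter windows of the same length. The letters TTGCNNAA were found in 4 of the 9, those of Ltf, Ngp, Lcn2 and S100a9, against 10.8% of all windows, and GAGGAA, a core of PU.1 sites, in 5 of the 9 against 28.3%. These are matches of letters only.

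Of the secondary granule genes, Camp showed the widest gap between hairpins. Its level was 1.94 and 0.893 CPM in shJun (138 and 101 UMIs) and 0.00998 and 0.0614 CPM in shNT (1 and 7 UMIs), with means of 1.42 ± 0.742 and 0.0357 ± 0.0364 (SD, n = 2 each). The shJun wells were above the shNT wells on 6 of 6 chips. On the chips of the second pair this order rested on few wells. On chip 4 all 76 shJun UMIs lay in 1 well, beside 3 UMIs in 3 shNT wells. On chip 3, 8 shJun and 4 shNT UMIs lay in 2 wells each, and on chip 6 a single shJun well held 15 of 17. Over all wells of that pair, 0.276% were positive for Camp in shJun and 0.228% in shNT. Ltf stood at 1.13 and 0.769 CPM in shJun (80 and 87 UMIs) and 0.0998 and 0.114 in shNT (10 and 13 UMIs), with shJun higher on 5 of 6 chips. These were the 2 of 9 members with both shJun animals above both shNT animals. Among all 33310 genes detected in these wells, 17.5% had that order, and the set was chosen with this contrast known.

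The other secondary genes overlapped between hairpins when all 4 animals were set side by side. Ngp was at 6.19 and 1.22 CPM in shJun and at 0.369 and 1.97 in shNT. Chil3 was at 7.74 and 0.442 in shJun and at 0.629 and 0.0877 in shNT. For both genes 1 shJun animal was far above the rest and the other lay within the shNT range. Lcn2 was at 1.06 and 1.89 in shJun and at 0.559 and 2.58 in shNT, a full overlap. Within the pairs that shared chips, Chil3 was higher in shJun both times (ratios 12.3 and 5.04, and on 5 of 6 chips), while Ngp (16.8 and 0.618) and Lcn2 (1.89 and 0.733) were higher in 1 pair and lower in the other. The counts of Chil3 are uncertain where reads could be shared with its near copy Chil4, which was itself low, with 13 to 17 UMIs in each animal.

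Over all wells, S100a8 and S100a9 pointed the other way. S100a8 was at 15.3 and 8.32 CPM in shJun and 32.1 and 14.7 in shNT, which overlapped by a narrow margin. S100a9 was at 11.1 and 6.45 in shJun and 13 and 11.4 in shNT, so that both shJun animals were lower. Of all genes, 9.81% had both shJun animals below both shNT animals. The primary granule genes stayed close to the limit of detection. Mpo had 30 and 10 UMIs in the shJun animals and 12 and 18 in the shNT animals, and Elane had 3 and 0 against 2 and 2. Summed over the 9 genes, levels were 45.0 and 20.1 in shJun against 46.9 and 31.1 in shNT. Within pairs the ratio of shJun to shNT was below 1 both times for S100a8 (0.477 and 0.566), S100a9 (0.860 and 0.568) and the sum (0.960 and 0.646). These orders depended on the richest wells. Without the richest well of each animal, S100a8 was at 15.3 and 7.80 in shJun against 13.8 and 9.68 in shNT. Without the richest 5, S100a8 was at 11.4 and 4.39 against 2.90 and 5.95. S100a9 was then at 9.02 and 3.58 against 1.25 and 3.74, and the sum at 31.4 and 9.83 against 5.95 and 14.7. The first pair had thus turned for all 3, and the second had not.

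**Figure D1:**
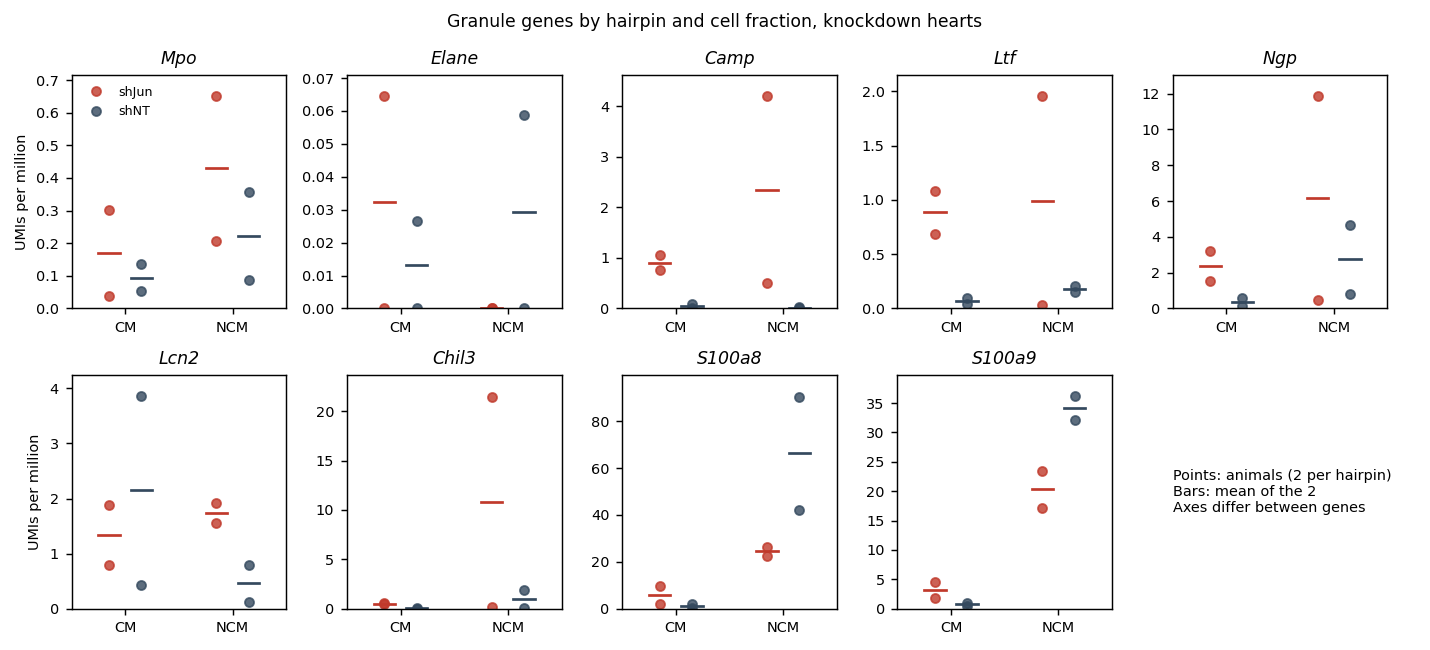
CPM (vertical axis, separate for each gene) of the 9 genes in the CM and NCM fractions of knockdown hearts, with 1 point per animal, 2 animals per hairpin and a bar at their mean. S100a8 and S100a9 sit higher in shJun in the CM fraction and lower in shJun in the NCM fraction, while Camp sits higher in shJun in both.

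For S100a8 and S100a9 the fractions held opposite orders. In the CM fraction, 6 of the 9 genes (Camp, Ltf, Ngp, Chil3, S100a8 and S100a9) were higher in both shJun animals than in both shNT animals, where 12.7% of all genes were. The split by fraction was added after the data had been seen, and the genes were chosen with this contrast known, so nothing is read from this count. S100a8 was at 9.50 and 2.23 CPM in the CM fraction of shJun and at 2.00 and 0.320 in that of shNT, and S100a9 at 4.62 and 1.90 against 1.03 and 0.520. In the NCM fraction the order of the sums turned for both. S100a8 was at 26.4 and 22.7 in shJun and 90.5 and 42.3 in shNT, and S100a9 at 23.5 and 17.2 against 36.1 and 32.1, and 10% of all genes were lower in both shJun animals there. On the 4 CM chips shJun was higher for both genes each time, and on the 2 NCM chips lower each time. Without the richest well of each animal, an alternative added after seeing the data, S100a8 stayed lower in both shJun animals of the NCM fraction, at 26.4 and 20.1 against 36.8 and 27.7. S100a9 did not, at 23.6 and 13.5 against 14.7 and 32.3. The share of NCM wells with an S100a9 UMI was higher in shJun, at 6.12% and 6.47% against 5.02% and 4.37%. Camp kept its order, with 0.752 and 1.06 CPM in the CM fraction of shJun against 0 and 0.0934 in shNT, and 4.20 and 0.504 in the NCM fraction against 0.0293 and 0. Lcn2 was higher in both shJun animals in the NCM fraction alone, at 1.55 and 1.93 against 0.792 and 0.128. A single well held 25 of the 38 Lcn2 UMIs there in the first shJun animal and 60 of the 65 in the second. The shares of NCM wells with an Lcn2 UMI overlapped, at 0.931% and 0.631% in shJun against 0.678% and 0.662% in shNT. How many of all genes were higher in both shJun animals of the NCM fraction was not computed. Erythroid transcripts, read here as a measure of blood in the sample, took different shares of the NCM fractions: the summed erythroid list was at 188470 and 27958 CPM in shJun and 71972 and 263957 in shNT, a spread between animals of the same hairpin, and its part in the levels of the granule genes was not tested.

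The levels rested on few wells. A well with the most UMIs of a gene held 75.2% of all Camp, 93.1% of all Ltf, 77.5% of all Ngp and 88% of all Chil3 of the second shJun animal, and for these genes it was the same well, in the CM fraction on chip 4. It held 36575 UMIs, 503 of them from 7 of the 9 genes: 76 Camp, 81 Ltf, 107 Ngp, 73 Lcn2, 44 Chil3, 60 S100a8 and 62 S100a9. CM marker genes made up 11.2% of its UMIs, beside a median of 14.8% over the wells of that chip. The first shJun animal had 1 well of the same make-up, on CM chip 2, with only 2786 UMIs in total (0.0985 times the chip median) and 81 from the 7 genes (3 Camp, 14 Ltf, 29 Ngp, 2 Lcn2, 1 Chil3, 17 S100a8 and 15 S100a9), and CM markers at 22.3% beside a chip median of 20.2%. The shNT animals had no well with 7 of the genes. Wells with 3 or more of the 9 genes numbered 11 of 3520 in shJun and 1 of 3962 in shNT.

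**Figure D2:**
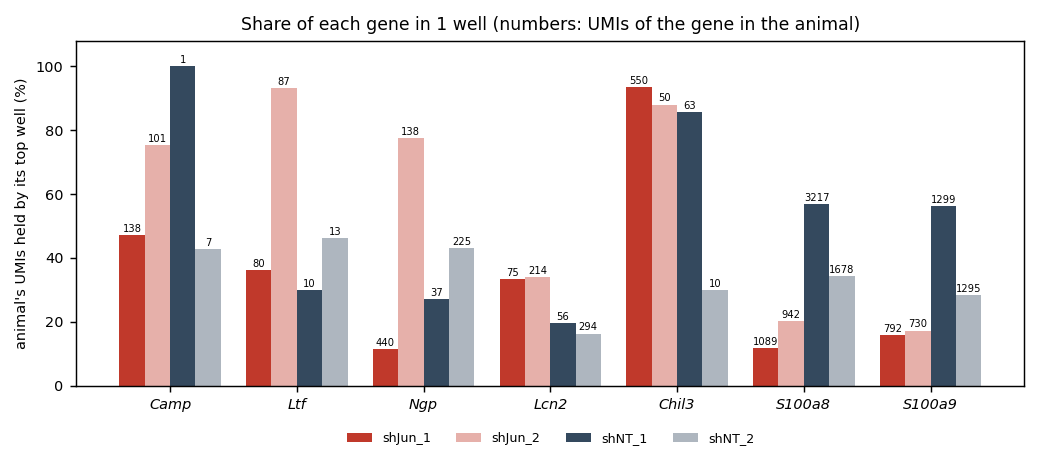
Share (percent, vertical axis) of an animal's UMIs of a gene that its single richest well held, for 7 genes and the 4 knockdown animals, with the animal's total UMIs of the gene above each bar. In shJun_2 a single well held 75.2% of Camp and 93.1% of Ltf, and in shJun_1 another held 93.5% of Chil3.

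In the first shJun animal the levels were spread over more wells, except for Chil3. A well in the NCM fraction held 514 of its 550 Chil3 UMIs and no other member, with macrophage markers at 0.00387% and monocyte markers at 0.00967% of its UMIs. Camp came from 17 wells there, the richest with 65 UMIs, and Ngp from 58 wells, the richest with 50. On the shNT side, a well of the NCM fraction of the first animal held 1831 S100a8 and 730 S100a9 UMIs, 56.9% and 56.2% of the animal's totals. Leaving out the well with the most granule UMIs of each animal changed the picture: Camp was then at 1.94 and 0.221 CPM in shJun against 0.00998 and 0.0615 in shNT and stayed above in both animals. Ltf was at 1.13 and 0.0530 against 0.0998 and 0.114 and no longer did. S100a9 moved to 11.1 and 5.90 against 5.68 and 11.4 and overlapped. In the CM fraction, 3 of the 9 genes (Camp, S100a8 and S100a9) had both shJun animals above both shNT animals without the richest well of each. For Camp the second shJun animal then fell to 0.101 CPM, next to 0.0938 in the second shNT animal. The share of all genes with that order was not computed without these wells, so nothing is read from the count of 3.

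Counted as positive wells, the hairpins differed mainly through the first shJun animal. In the CM fraction at least 1 of the 9 genes was seen in 166 of 959 wells of that animal (17.3%, exact interval 15 to 19.9%), 74 of 1175 of the second shJun animal (6.30%, 4.98 to 7.84%), 68 of 1036 of the first shNT animal (6.56%, 5.13 to 8.25%) and 109 of 1434 of the second (7.60%, 6.28 to 9.10%). Intervals are Clopper-Pearson at 95% and cover counting error only. The second shJun animal was at the level of the shNT animals. In the NCM fraction the shares were 21.8% and 18.0% in shJun and 19.5% and 13.4% in shNT. Thinned to 2000 UMIs per well, which leaves out 362 shJun and 299 shNT wells below that depth, the CM shares were 3.31% and 1% in shJun and 0.738% and 1.02% in shNT. Without thinning, Camp and S100a9 had a larger share of positive wells in both shJun animals than in both shNT animals; after thinning Camp, Ltf, Chil3, S100a8 and S100a9 did, with S100a9 at 1.58% and 0.809% in shJun and 0.709% and 0.580% in shNT. Among these, Camp, Ltf and Chil3 were expected in under 5 wells per animal, too few to read an order from. How many of all genes had that order in positive wells was not computed, so nothing is read from how many members did.

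Wells rich in cardiomyocyte genes were set beside wells poor in them. Of the 4744 knockdown wells in which CM markers made up at least 5% of UMIs (median depth 33705 UMIs), 9.57% held a granule UMI (8.75 to 10.4%). Of the 1872 wells under 1% (median depth 28515), 18.1% did (16.3 to 19.9%). The levels were 8.98 and 79.8 CPM, so for the sum the marker-rich wells were lower in both measures. Lcn2, pooled over animals, was seen in 2.55% of marker-rich wells (2.12 to 3.04%) and 0.801% of marker-poor wells (0.449 to 1.32%). Its pooled levels were 1.79 and 1.2 CPM. The share was larger in the marker-rich wells of each animal, but the level only in the second shNT animal, at 3.59 against 0.140. Marker-rich wells had the lower level in the shJun animals (0.795 against 1.56, 1.86 against 2.31) and the first shNT animal (0.588 against 1.06). The 181 wells of all chips that the reports name as negative or positive controls gave 7 granule UMIs in 104207, or 67.2 CPM, a rate above that of the marker-rich wells but one that rests on 7 UMIs. On the knockdown chips the negative controls had 0 in 40364 and the positive controls 2 in 40675.

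Genes of the set were seldom counted in the same knockdown well. There S100a8 was seen in 381 wells, S100a9 in 247 and both in 39. Restricted to wells with 10 or more S100a8 UMIs, S100a9 was seen in 8 of 40 shJun wells (20%, exact interval 9.05 to 35.6%) and in 5 of 23 shNT wells (21.7%, 7.46 to 43.7%). In wild-type P28 wells the same share was 74 of 94 (78.7%, 69.1 to 86.5%), and it was 11 of 13 in P4 wells and 9 of 13 in P7 wells. This minimum and pairing were chosen after the data had been seen. By animal the share was 4 of 23 and 4 of 17 in shJun and 5 of 9 and 0 of 14 in shNT, so the shNT animals lay on either side of the shJun animals. The intervals above pool wells over animals and leave out this spread. The largest knockdown well with S100a8 and no S100a9 held 576 S100a8 UMIs, in the second shNT animal, whose 14 wells with 10 or more S100a8 UMIs held no S100a9 at all. Wells with a single member and 10 or more UMIs of it made up 13% of 859 single-member knockdown wells and 1.53% of 1966 at P28. Sequenced reads per UMI ranged from 3.12 to 4.90 on the knockdown chips and from 3.31 to 12.6 on the P28 chips, and their part in the difference was not tested.

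**Figure D3:**
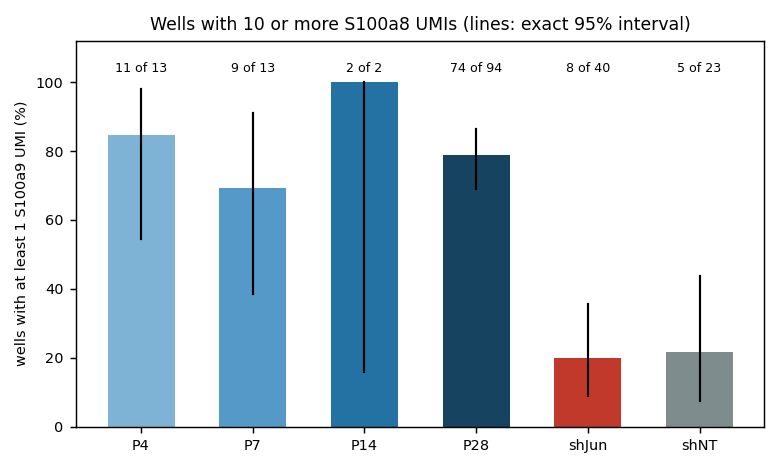
Percent (vertical axis) of wells with 10 or more S100a8 UMIs that also held S100a9, by wild-type age and by hairpin, with exact 95% intervals as lines and the counts above. The P28 wild-type wells stood at 78.7%, the shJun wells at 20% and the shNT wells at 21.7%. Wells are pooled over animals, so the lines leave out the spread between animals. By animal the counts were 4 of 23 and 4 of 17 in shJun and 5 of 9 and 0 of 14 in shNT.

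For comparison, 7 other ordered pairs of marker genes were counted the same way, chosen after the data had been seen, and they did not share 1 pattern. Of wells with 10 or more UMIs of the complement gene C1qa, 77.2% held C1qb in the knockdown against 98.4% at P28, while Col1a2 was seen in 83.7% of wells with 10 or more Col3a1 UMIs in the knockdown against 81.7% at P28. The source of the single-gene wells was not tested.

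Further neutrophil genes were taken from lists that hold none of the 9. A listed gene, Srgn included, need not be limited to neutrophils or encode a granule protein. Of 7 other genes on the primary granule list, 3 were higher in both shJun animals and 0 lower. Srgn, the granule proteoglycan serglycin, was at 78.3 and 82.4 CPM in shJun against 39.9 and 65.2 in shNT, Prtn3, proteinase 3, had 26 and 10 UMIs against 1 and 5, and Ms4a3 had no more than 2 UMIs in any animal. Serpinb1a, a protease inhibitor, overlapped, at 14.1 and 5.91 against 9.45 and 11.6. Of 13 other genes on the secondary granule list, 2 were higher (Fcnb and Ifitm6) and 1 lower. Cybb, the catalytic subunit of the phagocyte oxidase, was the lower one, at 17.6 and 19.2 in shJun against 31.3 and 32.4 in shNT. Hp, haptoglobin, stood at 4.97 and 5.35 in shJun and at 3.51 and 200.3 in shNT, so 1 shNT animal was far above the rest. Of 14 genes of mature neutrophils, 2 were higher (Ly6g and Hdc) and 3 lower (Csf3r, Clec4d and Il1r2). Csf3r, the receptor for granulocyte colony-stimulating factor and named here after its values were seen, was at 0.183 and 0.0884 in shJun and 1.32 and 1.49 in shNT. Retnlg, a resistin-like gene of mature neutrophils, was at 3.73 and 0.716 in shJun and 16.3 and 3.14 in shNT, which overlapped. The background was again 17.5% higher and 9.81% lower, and the medians of the 3 lists were 0.61, 0.21 and -0.23 (log2, shJun minus shNT), beside 0.11 over all genes. Markers of other cell types also differed between the hairpins. Endothelial markers had 4 of 8 higher in both shJun animals and 0 lower (median 0.39), B lineage markers 2 of 8 and 0 (0.68), and T and NK cell markers 1 of 8 and 0 (2.77). Megakaryocyte markers had 0 of 5 higher and 3 lower (median -2.43), and macrophage markers 0 of 8 and 1 (0.37). Their part in the levels of the granule genes was not tested.

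In the wild-type hearts, which enter no comparison of the hairpins, the summed level was highest at P28. It was 7.56 and 48.3 CPM in the P4 animals, 26.4 and 70.2 in the P7 animals, 8.96 and 14.5 in the P14 animals, and 387, 219, 928, 700 and 712 in the 5 P28 animals. Every P28 wild-type animal was above every animal of the other ages, and also above all 4 knockdown animals, which were of the same age but on a separate set of chips. Chip set and virus cannot be told apart in that difference. S100a8 was at 3.55 and 29.7 CPM in the P4 animals, 19.0 and 29.7 in the P7 animals and 2.87 and 6.70 in the P14 animals, below the 254, 125, 497, 331 and 468 of the P28 animals. On sums per animal, S100a8 rose from P4 to P28 by 4.52 ± 0.87 (log2, SE; edgeR quasi-likelihood test, Benjamini-Hochberg adjusted p = 0.00723), from P7 by 3.97 ± 0.84 (adjusted p = 0.00979) and from P14 by 5.5 ± 0.93 (adjusted p = 0.0300). S100a9 rose by 4.29 ± 0.72 from P4 (edgeR adjusted p = 0.00318), 4.03 ± 0.71 from P7 (0.00404) and 3.98 ± 0.71 from P14 (0.0368). These calls changed with the processing. With sums per chip neither gene was called in any contrast, and without the CM-named wells the 2 genes were not called against P7 or P14 and S100a8 alone was called against P4 (edgeR adjusted p = 0.0471). Without the first P7 animal neither was called against P7, and without either P14 animal neither was called against P14. In each contrast these were the 2 members called of 8 that passed the filter on low counts, Elane being left out by it. Among all 21143 genes tested, 3.79% were called higher at P28 than at P4, 5.8% than at P7 and 0.203% than at P14. P4 and P7 hearts were digested with a kit and P14 and P28 hearts by perfusion, and only the last 2 ages have named fractions in most chips, so method and age cannot be told apart for the first 2 contrasts.

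The secondary granule genes did not pass the test in any contrast, and Ngp, Camp and Ltf were low in the first 2 P28 animals. Ngp was at 0.225 and 0.213 CPM in the first 2 P28 animals and at 145, 87.0 and 30.3 in the other 3. Camp was at 0.0750 and 0.426 against 31.0, 55.5 and 9.03, and Ltf at 0.300 and 0.0709 against 28, 13.6 and 3.01. The first 2 animals, on chips 1 and 2, had S100a8 at 254 and 125. Lcn2 was graded over the 5 animals, at 2.85, 1.21, 20.1, 12.1 and 4.91, and Chil3 was at 0.150, 1.84, 1.18, 16.5 and 2.06, with P28_4 far above the rest. At P14 there were 0 UMIs of Camp, Ngp and Chil3 among 34454565, so with 3 counts over both P14 animals as the floor the P28 mean of Camp was at least 220-fold higher, that of Ngp at least 603-fold and that of Chil3 at least 49.8-fold. Without the P28 animal highest for the gene (P28_4 for Camp and Chil3, P28_3 for Ngp) these bounds were 116-fold, 338-fold and 15-fold. The bounds for Camp and Ngp rest on few wells. A single well of P28_3 held 1186 of the 2414 Camp UMIs and 5648 of the 9676 Ngp UMIs at P28. Against P14, edgeR gave adjusted p = 0.220 for Camp, 0.221 for Ngp and 0.188 for Chil3. Against P7, where 1 well of the second animal held 98 Camp, 100 Ltf and 375 Ngp UMIs of the stage's 104, 128 and 480, the adjusted p was 0.236, 0.351 and 0.349. Mpo was at 0.288 ± 0.139 CPM at P28 (SD, n = 5), with a change from P4 of -0.39 ± 0.72 (edgeR adjusted p = 0.775). Of the further lists, 4 of 12 tested genes on the secondary list and 6 of 14 on the mature list rose from P4 to P28. Among them were Lyz2 (4.72 ± 0.41) and Retnlg (7.39 ± 1.61). On the primary list 1 of 4 tested genes rose, Srgn. Lyz2 is also a macrophage gene, and in the same contrast 7 of 8 macrophage markers (median 3.49) and 6 of 6 tested erythroid genes (median 6.83) rose. Their part in the rise of S100a8 and S100a9 was not tested.

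**Figure D4:**
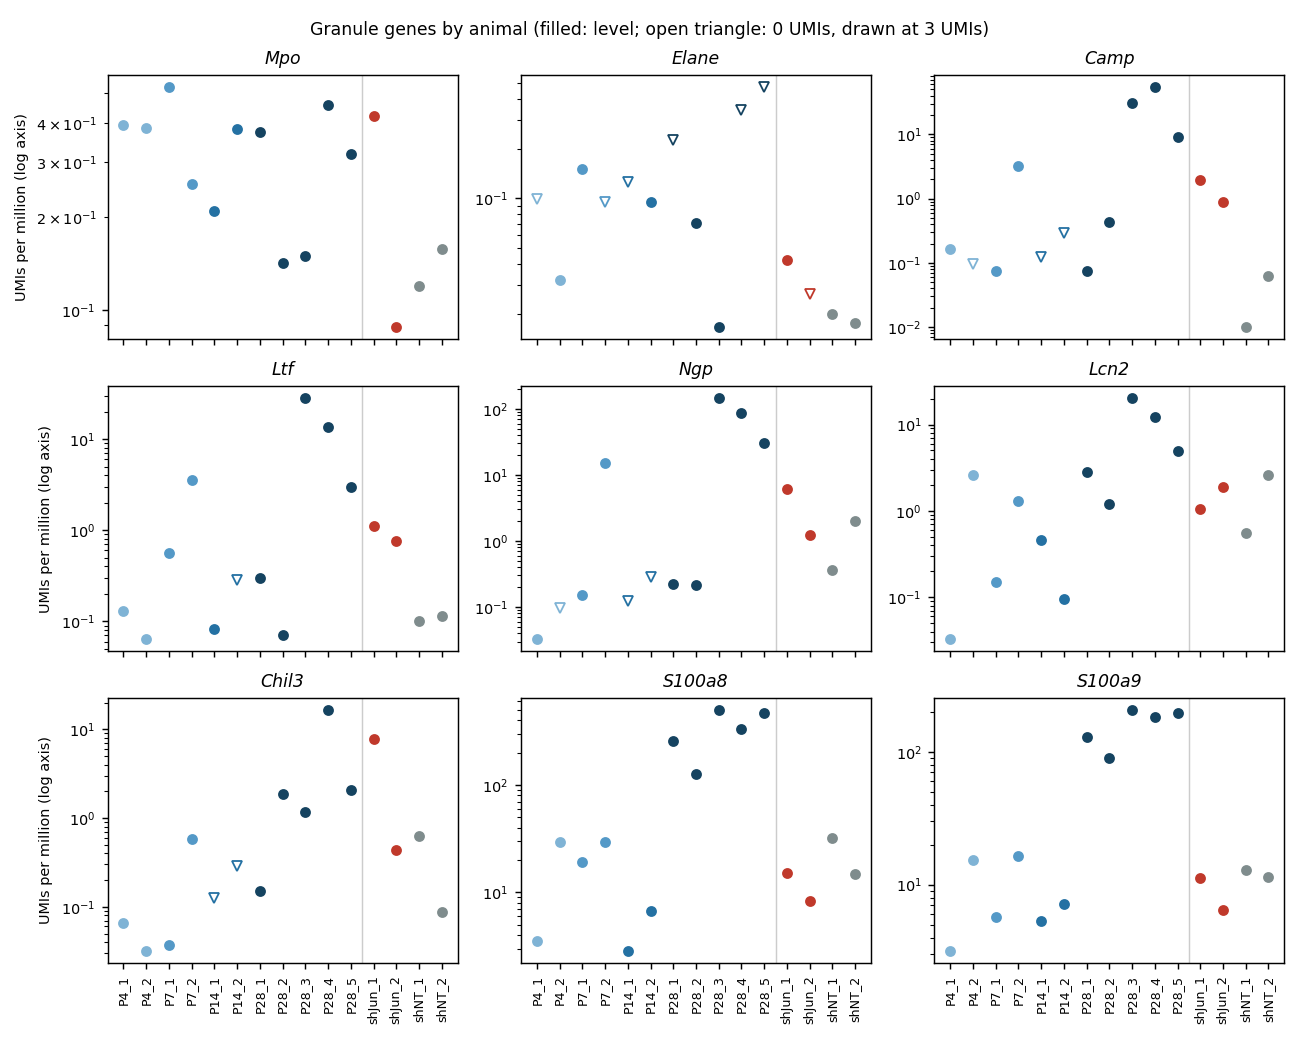
CPM on a log axis for each of the 9 genes, with 1 point per animal for the 11 wild-type animals and the 4 knockdown animals. Open triangles mark animals with 0 UMIs, drawn at the level that 3 UMIs would give. S100a8 and S100a9 sit highest in the 5 P28 wild-type animals, while Camp, Ltf and Ngp are high in 3 of them.

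Across the whole series, 10 wells held exactly 7 of the genes, always the 5 secondary genes with S100a8 and S100a9, and none held Mpo or Elane. They carried 53.5% of all member UMIs. There were 5 in P28_3, 2 in P28_4, 1 in P7_2 and 1 in each shJun animal. None of their barcodes carried 3 or more of the genes on another chip. The member share of a well's UMIs was between 2.72% and 29.8% in the 8 wild-type wells, and 1.38% and 2.91% in the shJun wells. These and 1 further P28 well with 5 of the genes also held other neutrophil transcripts: Lyz2 and Wfdc21 in 11 of 11, Hp, Anxa1 and Mmp9 in 10 of 11, but Prtn3, Ctsg and Olfm4 in none. The 2 shJun wells held 11 and 5 of 34 such genes, and the wild-type wells 11 to 22. Erythroid genes made up 23.5% and 40.3% of the UMIs in wells of P28_3 that held 16.4 and 7.62 times their chip's median UMIs. They made up 53.4% in a well of P28_4, and 0.0881% to 2.08% in the other wells with 7 of the genes. A further P28_3 well had CM markers at 8.10%, beside a chip median of 9.71%, and was not a passing well. Whether any of these wells held more than 1 cell was not tested. In wild-type P28 hearts, 111 wells held 10 or more UMIs of S100a8 and S100a9 together and 79 of these held none of the 5 secondary genes. In the knockdown 97 of 107 such wells held none.

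Of the 10 genes whose pattern over wells was most like that of the 9 summed, 4 were shared by knockdown and P28 wells. Over 7482 knockdown wells the highest Pearson correlations of log(1 + UMIs per 10000) belonged to Retnlg (0.21), Csf3r (0.18), Foxd4 (0.17), Pglyrp1 (0.17) and Fgr (0.17), followed by Cxcr2, Rab44, Slpi, Acpp and Padi4. Over 7964 P28 wells they belonged to Retnlg (0.39), Wfdc21 (0.35), Hp (0.35), Slpi (0.33) and Mmp8 (0.31), followed by Csf3r, Il1f9, Il1r2, Stfa2l1 and Cxcr2. The wells of a set share chips and depth, and correlations of this size in sparse counts are weak.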

How the data were processed

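Nanowell single-cell RNA-seq of mouse hearts was read from 18 count matrices and their well reports. The authors deposited raw UMI counts, 1 value per gene and well, without normalization. Per the study's methods and the submitters' processing notes, reads were assigned to wells by barcode, trimmed, screened, aligned to mm10 with STAR 2.5.2b, assigned to genes with featureCounts (Subread 1.4.6-p1) and collapsed by UMI. Symbols and positions came from GENCODE vM21, promoters from RefSeq.

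All wells with a cell were used, and samples were grouped by GEO's labels, with hairpin, animal and fraction taken from the deposited reports. No doublet caller was run, since wells had been imaged for single cells. The members, the lists and the rules were chosen with earlier results of these data known. The text names the 9 members, up to 4 genes per list with the most UMIs in knockdown wells, and the 10 genes most like the members over wells in knockdown and in P28. Other genes were named after their values were seen.

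shJun against shNT was described per animal without a test. Ages were tested on UMI sums per animal with edgeR 4.0.16 in R 4.3.3 (TMM, filterByExpr, quasi-likelihood, Benjamini-Hochberg threshold 0.05 over all genes, 11 animals, 7 residual degrees of freedom), after a test on simulated data. The SE of a log2 change was back-calculated as its absolute value divided by the square root of the F statistic. Nothing says more of the replicates than that they are separate animals by name. Other analyses used Python 3.11.15. Alternatives were DESeq2 1.42.0, other scaling, filters, wells and left-out animals. A passing well had at least 500 genes and log10 UMIs within 2 SD of its group's mean.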

Additional observations from a re-analysis of the deposited data

Results flagged for a closer look

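For S100a8, S100a9 and the 9 genes summed, the chips of the 2 fractions moved in opposite directions between hairpins. For these, shJun was higher on 4 of 4 CM chips and lower on 2 of 2 NCM chips, and the difference itself was not tested. On CM chip 3 the sum differed little, at 4.23 CPM in shJun against 4.04 in shNT. Camp, Chil3 and Lcn2 were instead higher in shJun on 2 of 2 NCM chips, and Ngp and Ltf on 1 of 2. For S100a8 the log2 ratio of mean levels was 2.48 over CM chips and -1.44 over NCM chips. For S100a9 it was 2.15 and -0.75, and for the 9 genes summed 1.72 and -0.64. These values rest in part on single wells. Without the richest well of each animal, S100a9 in the NCM fraction was at 14.7 CPM in the first shNT animal, below its shJun partner at 23.6, and the sum in the CM fraction was at 3.95 in the second shJun animal, below its shNT partner at 5.03. The NCM sum of the first pair also turned, at 70.8 in shJun against 55.4 in shNT.

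Within the 5 wild-type P28 animals, 2 of 10 measures had a single animal far from the others by Dixon's criterion, which chance alone meets in about 1 of 20 groups. Chil3 was at 16.5 CPM in P28_4, and Elane at 0.0709 in P28_2, which is a single UMI.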

How the results depend on the processing

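No paired analysis was possible because shJun against shNT was given no test and the labels' replicate numbers count chips, which pair no animals across ages; shJun and shNT animals that shared chips are described as pairs in the results. The number of members higher in both shJun animals (2 of 9) was 6 in wells with at least 5% CM markers, 4 with that limit at 2%, 6 at 10% and 6 in the CM fraction. It was 1 without the richest well of each animal and 1 without the richest 5, and 2 to 6 with 1 animal left out. Of all genes, 17.5% had that order over all wells and 12.7% in the CM fraction. That share was not computed for the other settings, so nothing is read from their counts. The number with more positive wells in both (2) was 5 after thinning to 2000 UMIs, and the share of all genes with that order was not computed. The 2 members called by stage became, for P28 against P4, 6 with DESeq2, 6 without a filter on low counts, 0 with sums per chip, 1 without CM-named wells and 1 to 6 with an animal left out. Against P7 they became 4 without a filter, 0 with sums per chip, 0 without CM-named wells and 0 to 2 with an animal left out. Against P14 they became 6 with DESeq2, 6 without a filter, 0 with sums per chip, 0 without CM-named wells and 0 to 2 with an animal left out. Where edgeR called 0 with sums per chip, 6, 4 and 7 members had an unadjusted p under 0.05 against P4, P7 and P14, and without CM-named wells 4 and 6 did against P7 and P14. Without the first P7 animal 0 were called against P7 (2 unadjusted), without the second 1. Without the first or second P14 animal 0 were called against P14 (2 and 4 unadjusted), and without P28_4 or P28_5 1 was. Without P28_1 or P28_2, 6 and 4 were called against P4, and without the first P4 animal 1. For the hairpins the count was 6 without the second shJun animal and 4 without the second shNT animal. For the ages, the share of all genes called is given for the main setting only, so nothing is read from the counts under other settings. The causes were not tested. No member's stage call reversed. Fraction settings were chosen after seeing the data.

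Low counts limit Mpo and Elane throughout, and Camp and Ltf in shNT, where an animal held no more than 13 UMIs of either.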
